A study of Mus musculus with 9 samples.

Results

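Muscle stores glucose as glycogen and breaks it down when it contracts. The 10 genes described here code for enzymes of that breakdown, of glycogen synthesis, of glycolysis and of the paths next to it. They were chosen by name, with earlier results of these data known. The 10 have 11 probe sets on the array, since Ldhb has 2, out of 8251 genes that a probe set with 1 symbol represents. Transcripts were read from the gastrocnemius, in the calf, of 9 mice with 1 array per mouse. The array was the Affymetrix U74Av2, with a set of short oligonucleotide probes for each transcript. The study crossed mice that carry the full-length human dystrophin gene with mice that lack dystrophin, or dystrophin and utrophin.

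The 6 genotypes were wild-type (n = 2, 1 female and 1 male, both 7 weeks old, on a mixed C57Bl/DBA2/129OLA-Ev background), hDMD (n = 1, 11 weeks), hDMD mdx (n = 2, 24 and 10 weeks), hDMD mdx utrn-/- (n = 1, 9 weeks), mdx (n = 2, 15 and 13 weeks) and mdx utrn-/- (n = 1, 5 weeks). All but the female wild-type mouse were male. Mice of the mdx strain carry a mutation in Dmd and lack full-length dystrophin, the protein that ties the cytoskeleton of the fibre to its membrane. The hDMD mice carry the human gene beside their own, and utrophin, absent from the utrn-/- mice, is a protein of the same family. The labels name no strain for the other genotypes and no copy number for the human gene. Genotype and age differ together, and a genotype with 1 mouse has no spread of its own.

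Glycogen phosphorylase, the product of Pygm, releases glucose phosphate from glycogen in muscle. It is switched on by phosphorylase kinase, an assembly of regulatory subunits (Phka1 in muscle), a catalytic subunit (Phkg1 in muscle) and others, in response to calcium and adrenaline. Glycogen synthase (Gys1) works the other way. Fast fibres, which fill most of the mouse gastrocnemius, rely on this store and on glycolysis.

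Intensities were brought to 1 common distribution by quantile normalisation, and a level is given as log2(intensity + 16), which has its floor at 4 and understates the change of dim genes. A level carries an SD and a difference an SE. The spike-in controls, RNAs added to every sample, divided the arrays into 3 bright ones (wild-type 1, hDMD mdx 1 and mdx 2, medians 206 to 225) and 6 dim ones (28.5 to 42.3). The actin 3' to 5' ratio, a sign of RNA integrity, ran from 1.2 to 1.87 on the bright arrays, against 0.669 to 0.908 on the dim ones. Differences are therefore also given for each of these sets of arrays alone. No genotype has more than 1 mouse in a set, so a difference between genotypes within a set compares single mice. Among the bright arrays only mdx 2 lacks dystrophin. Skeletal muscle as the tissue was borne out by 8 markers of it (Ckm, Acta1, Myh4, Tnnt3, Mylpf, Atp2a1, Mb and Pvalb). Their summed intensity was 18735 to 21096 in the 6 arrays with dystrophin and 18284 to 20052 in the 3 without it. Which muscle was sampled was not tested with them. No muscle marker was at the floor in any array. In bulk muscle, fewer fibres and less RNA per fibre cannot be told apart.

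All 10 genes passed the filter on dim probe sets through their brighter probe set. The other Ldhb probe set lay between 4 and 4.24, was at the floor in 4 of the 9 arrays and did not pass. The Gpd2 probe set is of a type whose probes can match several members of a gene family, so its values are less certain than those of the rest of the 10. Outside the 10, the probe sets of Aldoa and Gyg, both of the wider pathway, and of the markers Actc1, Ckm and Myh7 are of that type too.

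Phka1 and Fbp2 differed most between mice without and with dystrophin, and the sequences just before their annotated starts are shown for that reason. Each line gives the 250 bases before the start in RefSeq, build GRCm38.p6, on the strand of the gene. Phka1 lies on the minus strand at chrX:102644247-102644496 and Fbp2 on the minus strand at chr13:62858401-62858650. Capitals mark the letters CANNTG, the core of the E-box that myogenic factors such as MyoD can bind, which reads alike on both strands in this form.
Phka1: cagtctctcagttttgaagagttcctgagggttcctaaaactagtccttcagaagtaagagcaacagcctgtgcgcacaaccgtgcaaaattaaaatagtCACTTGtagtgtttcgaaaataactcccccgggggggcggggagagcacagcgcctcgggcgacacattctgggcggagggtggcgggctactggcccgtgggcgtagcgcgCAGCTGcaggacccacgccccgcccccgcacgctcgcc
Fbp2: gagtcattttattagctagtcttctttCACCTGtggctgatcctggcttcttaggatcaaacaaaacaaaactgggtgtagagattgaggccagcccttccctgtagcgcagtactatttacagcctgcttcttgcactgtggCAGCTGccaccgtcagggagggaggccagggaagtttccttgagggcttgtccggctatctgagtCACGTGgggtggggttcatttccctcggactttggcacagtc
The Phka1 window holds 2 matches, at -150 and -38 from the start, and the Fbp2 window 3, at -223, -107 and -42. Of 32851 windows of this length in the same table, 66.2% hold at least 1 match, 31.8% at least 2 and 12.2% at least 3. All 10 genes have a window, 15 in all, and 12 of these hold a match. A match describes letters and does not show binding.

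The first comparison set the 3 arrays without full-length dystrophin (mdx and mdx utrn-/-) against the 6 with it, mouse or human. Phka1 (Entrez gene 18679), the regulatory subunit of muscle phosphorylase kinase, had its 3 lowest levels in the 3 mice without dystrophin. Its level was 6.85 and 6.89 in the mdx mice 1 and 2, 6.19 in mdx utrn-/-, 7.68 in hDMD mdx utrn-/-, 7.81 and 7.84 in the hDMD mdx mice 1 and 2, 7.78 in hDMD, and 7.49 and 7.54 in the wild-type mice 1 and 2. The groups did not overlap, and 1.42% of all probe sets were lower with no overlap. The 4 carriers of the human gene stood above both wild-type mice, and the share of all probe sets that do so was not counted. The mean was 6.64 ± 0.40 (SD, n = 3) without and 7.69 ± 0.15 (SD, n = 6) with dystrophin, a difference of -1.04 ± 0.22 (SE), or a 2.06-fold lower level. Bright arrays alone gave -0.76 and dim arrays alone -1.19. It did not pass over all probe sets (limma adjusted p = 0.222, and 0.0759 to 1.0 over the alternatives).

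The order of the Phka1 genotype means was hDMD mdx (7.82 ± 0.02), hDMD (7.78), hDMD mdx utrn-/- (7.68), wild-type (7.52 ± 0.04), mdx (6.87 ± 0.03) and mdx utrn-/- (6.19). In the genotype fit hDMD mdx minus wild-type was 0.31 ± 0.31 and mdx minus wild-type -0.64 ± 0.31, with limma adjusted p = 1.0 for both. The 2 mice of each of these genotypes lay close together, although 1 of each pair was on a bright and 1 on a dim array. The test of any difference between the 6 genotypes gave an unadjusted p of 0.0242 for Phka1 (limma adjusted p = 1.0), and 0% of probe sets passed it in limma (2.95% at an unadjusted p under 0.05).

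**Figure D1:**
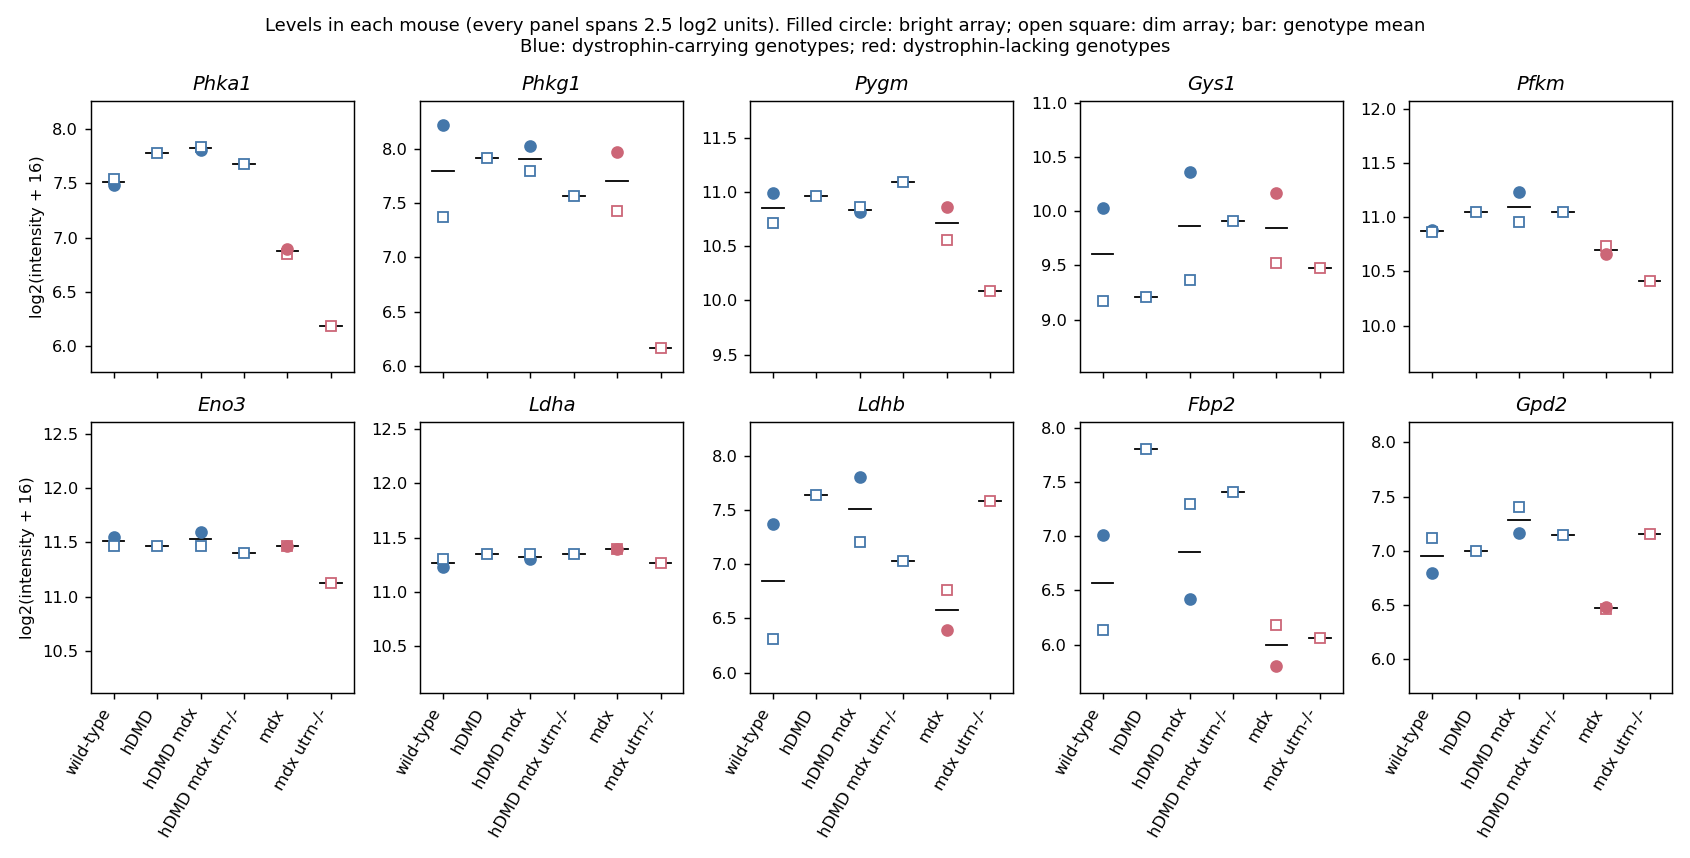
Level of each of the 10 genes in each of the 9 mice, as log2(intensity + 16) on the vertical axis, by genotype on the horizontal axis. Filled circles are bright arrays, open squares dim arrays and bars genotype means. The Phka1 and Pfkm levels of the 3 red mice, which lack dystrophin, lie below those of all 6 blue mice, and Gys1 and Phkg1 are higher in the bright than in the dim arrays.

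In the plot of levels by genotype, Pfkm was the only other of the 10 genes whose levels without and with dystrophin did not overlap. Phkg1 (Entrez 18682), the catalytic subunit of phosphorylase kinase, was at 7.43 and 7.97 in the mdx mice 1 and 2, 6.17 in mdx utrn-/-, 7.57 in hDMD mdx utrn-/-, 8.03 and 7.80 in the hDMD mdx mice 1 and 2, 7.92 in hDMD, and 8.22 and 7.38 in the wild-type mice 1 and 2. The double-deficient mouse was the lowest, and both mdx mice lay among the others. The difference without dystrophin was -0.63 ± 0.36 (-0.15 on bright and -0.87 on dim arrays alone; limma adjusted p = 0.993). Without mdx utrn-/- it was -0.12 and without mdx 2 it was -1.02. All 3 bright arrays were above all 6 dim ones, as for 13.9% of all probe sets.

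Pygm (Entrez 19309), the phosphorylase itself, was at 10.56 and 10.86 in the mdx mice 1 and 2, 10.09 in mdx utrn-/-, 11.09 in hDMD mdx utrn-/-, 10.82 and 10.86 in the hDMD mdx mice 1 and 2, 10.96 in hDMD, and 10.99 and 10.71 in the wild-type mice 1 and 2. Its difference was -0.40 ± 0.22 (-0.04 on bright and -0.58 on dim arrays alone; limma adjusted p = 0.988). The double-deficient mouse was again the lowest, and mdx 2 lay within the range of the mice with dystrophin. Without mdx utrn-/- the Pygm difference was -0.19.

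Gys1 (Entrez 14936), muscle glycogen synthase, followed the brightness of the array. Its level was 10.03, 10.36 and 10.17 in the bright arrays of wild-type 1, hDMD mdx 1 and mdx 2. In the dim arrays it was 9.52 in mdx 1, 9.48 in mdx utrn-/-, 9.91 in hDMD mdx utrn-/-, 9.36 in hDMD mdx 2, 9.21 in hDMD and 9.17 in wild-type 2. The bright mean was 10.19 and the dim mean 9.44, and the levels of the bright arrays were all higher, as they were for 13.9% of all probe sets. The difference without dystrophin was 0.05 ± 0.31 (limma adjusted p = 0.999), with -0.03 in bright arrays alone and 0.09 in dim ones. It ran from -0.17 without mdx 2 to 0.19 without hDMD mdx 1.

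Pfkm (Entrez 18642), the muscle phosphofructokinase that commits sugar to glycolysis, was at 10.73 and 10.66 in the mdx mice 1 and 2, 10.42 in mdx utrn-/-, 11.04 in hDMD mdx utrn-/-, 11.23 and 10.96 in the hDMD mdx mice 1 and 2, 11.04 in hDMD, and 10.88 and 10.86 in the wild-type mice 1 and 2. The 3 mice without dystrophin were the 3 lowest, as for Phka1, with mdx 1 closest to the mice with dystrophin. The difference was -0.40 ± 0.20, the same in bright and in dim arrays (-0.40 and -0.40; limma adjusted p = 0.939).

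Eno3 (Entrez 13808), the muscle enolase, and Ldha (Entrez 16828), the main lactate dehydrogenase subunit of muscle, were among the 15 brightest probe sets of every array. Quantile normalisation gives equal ranks equal values, and Eno3 held rank 8 in 5 arrays. Eno3 ranged from 11.12 in mdx utrn-/- to 11.60 in hDMD mdx 1, with 11.47 in both mdx mice and 11.55 and 11.47 in wild-type 1 and 2. Ldha ranged only from 11.23 in wild-type 1 to 11.40 in both mdx mice. Their differences without dystrophin were -0.14 ± 0.19 for Eno3 and 0.04 ± 0.18 for Ldha (limma adjusted p = 0.999 for both). Scaled to a common trimmed mean instead, they were -0.30 ± 0.59 and -0.22 ± 0.59, so the sign of Ldha depended on the scaling. Without mdx utrn-/- the Eno3 difference was -0.02.

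Ldhb (Entrez 16832), the lactate dehydrogenase subunit of heart and slow muscle, varied within genotypes. Its level was 6.77 and 6.39 in the mdx mice 1 and 2, 7.59 in mdx utrn-/-, 7.02 in hDMD mdx utrn-/-, 7.81 and 7.21 in the hDMD mdx mice 1 and 2, 7.64 in hDMD, and 7.37 and 6.31 in the wild-type mice 1 and 2. The groups overlapped, and the wild-type mice lay far apart. The pooled difference was -0.31 ± 0.35 (limma adjusted p = 0.999), but bright arrays alone gave -1.2 and dim arrays alone 0.13. It was -0.65 without mdx utrn-/-, -0.50 without wild-type 2, -0.20 without hDMD mdx 1 and -0.05 without mdx 2. The summed intensity of 9 slow fibre markers (Myh7, Myl2, Myl3, Tnnt1, Tnni1, Tnnc1, Atp2a2, Casq2 and Tpm3) also varied widely, from 795 to 4849 with and from 878 to 4315 without dystrophin, none of them at the floor. The part of fibre type in the Ldhb levels was not tested.

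Fbp2 (Entrez 14120), the muscle fructose bisphosphatase, which opposes phosphofructokinase, was low in all 3 mice without dystrophin. It was at 6.18 and 5.80 in the mdx mice 1 and 2, 6.06 in mdx utrn-/-, 7.40 in hDMD mdx utrn-/-, 6.42 and 7.30 in the hDMD mdx mice 1 and 2, 7.80 in hDMD, and 7.01 and 6.14 in the wild-type mice 1 and 2. Wild-type 2 lay among the mice without dystrophin. The means were 6.02 ± 0.19 (n = 3) and 7.01 ± 0.63 (n = 6), a difference of -0.99 ± 0.35. Bright arrays alone gave -0.91 and dim arrays alone -1.04, and the human gene as a covariate gave -0.56 ± 0.42. The unadjusted p was 0.0146 and the limma adjusted p = 0.738 (0.263 to 1.0 over the alternatives).

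Gpd2 (Entrez 14571), the mitochondrial glycerol phosphate dehydrogenase that passes electrons from glycolysis to the respiratory chain, was low in the mdx mice only. It was at 6.46 in mdx 1 and 6.48 in mdx 2, against 7.15 in each of the utrn-/- mice, 7.16 and 7.41 in the hDMD mdx mice 1 and 2, 7.00 in hDMD, and 6.79 and 7.12 in the wild-type mice 1 and 2. The double-deficient mouse thus stood with the mice that carry dystrophin. The difference without dystrophin was -0.40 ± 0.23 (-0.49 on bright and -0.36 on dim arrays alone; limma adjusted p = 0.999), and -0.63 without mdx utrn-/-.

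Across the 10 genes, 8 had lower mean levels without dystrophin, with a median difference of -0.40, against -0.01 over all 7453 probe sets tested, of which 51.8% were lower. With the other scaling 9 were lower, with a median of -0.45. The genes were chosen with earlier results of these data known, so these counts and medians describe the 10 and test nothing. None of the 10 passed in limma, where 0.121% of all probe sets did. Phka1 and Fbp2 had an unadjusted p under 0.05, as 5.58% of all did, and both were known from earlier results on these data. Phka1 and Pfkm were lower with no overlap, as were 1.42% of all.

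**Figure D2:**
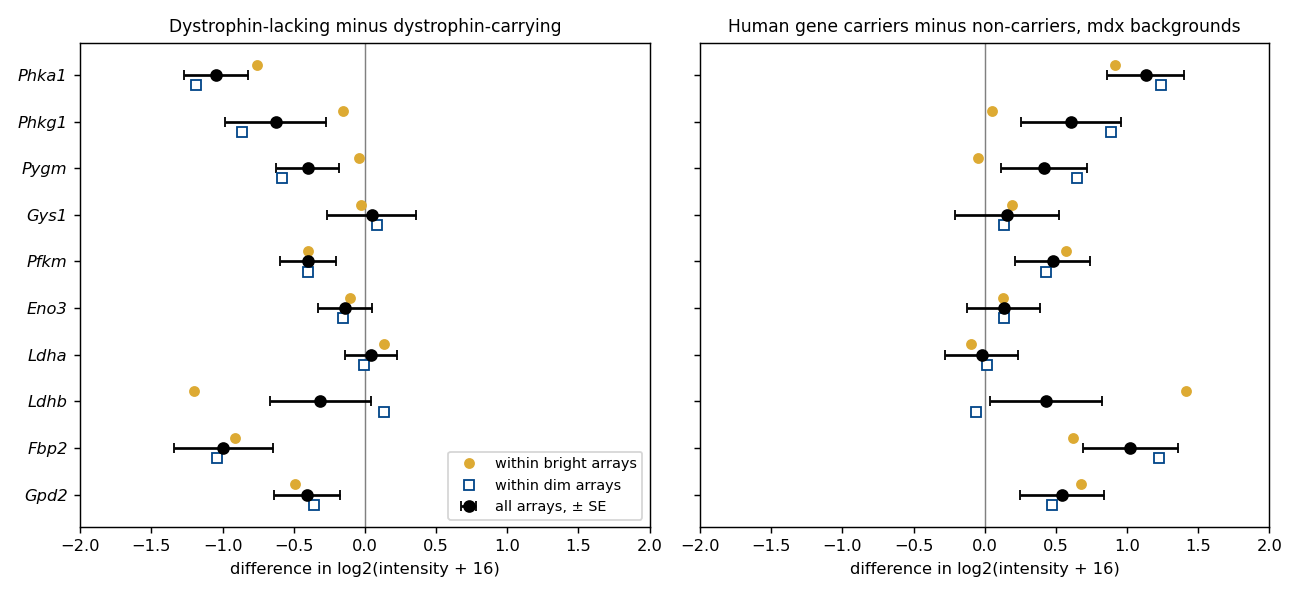
Difference in log2(intensity + 16) of each gene, without minus with dystrophin (left) and human gene carriers minus non-carriers on the mdx backgrounds (right). Black points with bars are the fitted differences ± SE over all arrays of the comparison, filled points the differences within the bright arrays and open squares those within the dim arrays. Phka1 is at -1.04 on the left and 1.13 on the right, and Ldhb differs most between bright and dim arrays. The non-carriers on the right are the mice without dystrophin on the left.

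Markers of regenerating muscle and of macrophages had higher mean levels without dystrophin, where 51.8% of all probe sets were lower. In limma 2 of the 10 regenerating muscle markers passed and 0 of the 9 macrophage markers, where 0.121% of all probe sets passed. Of each list 7 had an unadjusted p under 0.05, as 5.58% of all did. All 10 regenerating muscle markers (Myh3, Myh8, Myl4, Myog, Myod1, Chrna1, Chrng, Igf2, Actc1 and Ncam1) had higher mean levels without dystrophin. Their summed intensity was 2579 to 3708 without and 942 to 2146.5 with dystrophin. Myh3 and Igf2 were at the floor in 1 array each. Of 12 macrophage markers 9 passed the filter and all 9 were higher, with summed intensities of 975 to 1767 without and 236 to 1251 with dystrophin. Itgam was at the floor in 5 arrays, Adgre1 and Fcer1g in 3 each and Lyz2 and Tyrobp in 1 each. The macrophage sums overlapped, and the highest with dystrophin was that of wild-type 2, whose Phka1 stood at 7.54 and Fbp2 at 6.14. The part of these cells in the levels of the 10 genes was not tested. With age as a covariate the Phka1 difference was -1.04 ± 0.22.

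**Figure D3:**
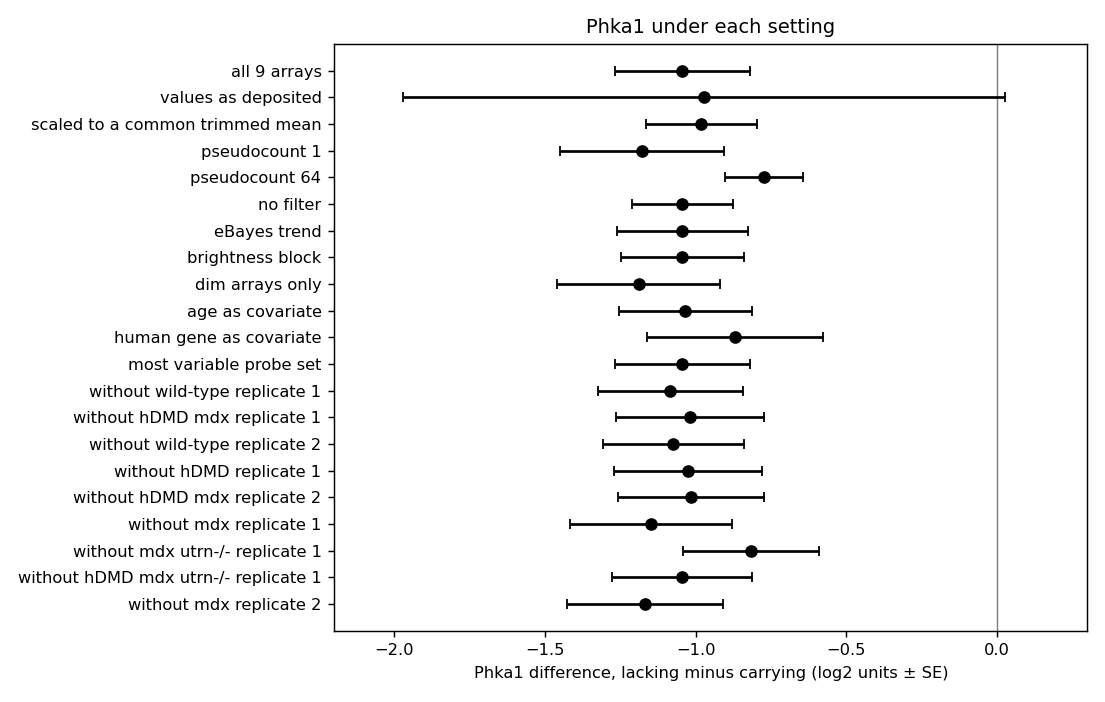
Phka1 difference without minus with dystrophin, in log2 units ± SE, under each processing setting and with each mouse left out. The difference runs from -1.19 in the dim arrays alone to -0.77 with a pseudocount of 64, and the SE is widest for the values as deposited.

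The plot of Phka1 by setting shows a difference below 0 in each of the 20 alternatives. Some of these could not move the estimate of -1.04, namely no filter, an eBayes trend, the most variable probe set and brightness as a block. Leaving out mdx utrn-/-, the mouse with the lowest Phka1, gave -0.82 ± 0.23 (limma adjusted p = 0.622).

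Loss of mouse dystrophin alone was read from mdx against wild-type mice, 2 of each, the wild-type ones younger. Phka1 differed by -0.64 ± 0.31, Gpd2 by -0.48 ± 0.33 and Pfkm by -0.18 ± 0.32, each with lower levels in mdx and no overlap between the 4 mice. Of all probe sets 10.7% were lower with no overlap. Ldha was higher by 0.13 ± 0.31 with no overlap, as were 11.2% of all. Fbp2 differed by -0.58 ± 0.46 (-1.2 on bright and 0.05 on dim arrays alone) and Ldhb by -0.27 ± 0.46 (-0.98 and 0.45). The median over the 10 genes was -0.16, with -0.24 in bright arrays alone and 0.02 in dim ones. Of all 7453 probe sets 0% passed in limma and 1.74% had an unadjusted p under 0.05, none of them a probe set of the 10 genes.

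The human gene on the mdx background was read from hDMD mdx against mdx mice, which are also part of the comparisons above. Phka1 was higher in hDMD mdx by 0.95 ± 0.31 (0.92 on bright and 0.99 on dim arrays alone; unadjusted p 0.0186), and Gpd2 by 0.81 ± 0.33 (0.68 and 0.94; unadjusted p 0.0435). Ldhb was higher by 0.93 ± 0.46 (1.41 and 0.44), Fbp2 by 0.87 ± 0.46 (0.62 and 1.11) and Pfkm by 0.40 ± 0.32 (0.57 and 0.23). In these 5 genes both hDMD mdx mice were above both mdx mice, as they were for 13.9% of all probe sets. Ldha differed by -0.07 ± 0.31 with no overlap, as were 13.1% of all. Of all probe sets 0% passed in limma and 2.88% had an unadjusted p under 0.05, and the limma adjusted p was 1.0 for each of the 10 genes.

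Over both deficient backgrounds, the 3 carriers of the human gene were set against the 3 non-carriers, with utrophin genotype as an additive term. These non-carriers are the 3 mice without dystrophin of the first comparison, and the carriers are among its mice with dystrophin. The values here are therefore not independent of that comparison. On the bright arrays hDMD mdx 1 is set against mdx 2, the same pair as in hDMD mdx against mdx. Phka1 was at 7.78 in carriers and 6.64 in non-carriers, a difference of 1.13 ± 0.27 (0.92 on bright and 1.24 on dim arrays alone; limma adjusted p = 0.417). Fbp2 differed by 1.02 ± 0.33 (0.62 and 1.23; limma adjusted p = 0.711) and Pfkm by 0.48 ± 0.26 (0.57 and 0.43; limma adjusted p = 0.979). Each of the 3 was higher in all 3 carriers than in all 3 non-carriers, as were 5.23% of all probe sets. Of the 10 genes 9 were higher, with a median of 0.45 against 0.02 over all probe sets. This too describes genes chosen with earlier results of these data known. None passed, as 0% of all did in limma, and Phka1 and Fbp2 had an unadjusted p under 0.05, as 5.49% of all did. The regenerating muscle markers were lower in carriers in 10 of 10 and the macrophage markers in 9 of 9, where 48.4% of all probe sets were lower. Their medians were -1.26 and -1.61. The part of these cells in the values of the 10 genes was not tested. With brightness as a block, 0.0537% of all probe sets passed and none of the 10 genes did.

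The single pair of double-deficient mice, with and without the human gene, has 1 array on each side and no test. Phka1 was higher with the human gene by 1.49, Phkg1 by 1.40, Fbp2 by 1.34, Pygm by 1.0 and Pfkm by 0.63. Ldhb differed by -0.56, and Gpd2 was at 7.15 in both mice. Of all probe sets 8.17% were higher by more than 1. Of the 10 genes 5 had their lowest level in mdx utrn-/- (Phka1, Phkg1, Pygm, Pfkm and Eno3), as 13.2% of all probe sets did. That mouse was the youngest, at 5 weeks, and age and genotype cannot be told apart there.

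The difference between the effect of the human gene in utrn-/- and in utrophin-carrying mdx mice was 1.19 ± 0.72 for Phkg1, 0.87 ± 0.57 for Pygm, -0.81 ± 0.57 for Gpd2 and -1.49 ± 0.80 for Ldhb. None passed. Of all probe sets 0% passed in limma, and 3.84% had an unadjusted p under 0.05. The lone mice of the utrn-/- genotypes were assumed to vary like the others in this fit. Loss of utrophin, with the human gene as an additive term, gave -0.94 ± 0.37 for Phkg1 (unadjusted p 0.037, limma adjusted p = 0.740), -0.42 ± 0.29 for Phka1 and -0.24 ± 0.27 for Eno3, whose levels did not overlap (9.18% of all were lower with no overlap). Without mdx utrn-/- these were -0.34 for Phkg1 and -0.15 for Phka1, and without hDMD mdx utrn-/- they were -1.54 and -0.69. Both utrn-/- arrays were dim, while hDMD mdx 1 and mdx 2 were bright, so utrophin genotype and brightness were not balanced. With brightness as a block the differences were -0.75 ± 0.38 for Phkg1 (limma unadjusted p 0.092), -0.41 ± 0.28 for Phka1 and -0.21 ± 0.26 for Eno3. The Eno3 value turned to 0.83 with trimmed mean scaling. The median over the 10 genes was -0.16, and it turned to 0.27 with trimmed mean scaling. Of all probe sets 0% passed in limma, and 5.9% had an unadjusted p under 0.05.

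Against wild-type mice, which are younger, hDMD mdx mice had Phka1 higher by 0.31 ± 0.31, Gpd2 by 0.33 ± 0.33 and Pfkm by 0.22 ± 0.32, each with no overlap, as 10.5% of all probe sets had. The lone hDMD mouse had Fbp2 higher than the wild-type mean by 1.23 ± 0.57 and Ldhb by 0.79 ± 0.57, both above the 2 wild-type mice, as 32.3% of all probe sets were. These SEs take the spread from the genotypes with 2 mice, since the lone mouse has none. That Fbp2 level, 7.80, was the highest of the 9. In both comparisons 0% of probe sets passed in limma. An unadjusted p under 0.05 was found for 0.832% and 1.82%, with none of the 10 genes among them.

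Other genes of the pathway were taken from a list of 46, also chosen with earlier results of these data known. Of the 46, 35 had a probe set with 1 symbol and 27 passed the filter. Without dystrophin 19 of the 27 were lower and 8 higher, with a median of -0.15, and none passed in limma. Of all probe sets 51.8% were lower, with a median of -0.01. Slc2a4, the insulin-responsive glucose transporter, was the only 1 of the 27 with no overlap, where 1.42% of all probe sets were lower with no overlap. It was at 8.27 and 8.38 in the mdx mice 1 and 2, 8.58 in mdx utrn-/-, 9.06 in hDMD mdx utrn-/-, 9.36 and 9.06 in the hDMD mdx mice 1 and 2, 8.91 in hDMD, and 8.97 and 8.66 in the wild-type mice 1 and 2. Its difference was -0.59 ± 0.21 (limma adjusted p = 0.764). Hk2, the hexokinase of muscle, differed by -0.30 ± 0.21 and Pgm1, a phosphoglucomutase that joins glycogen to glycolysis, by -0.43 ± 0.20.

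Among the enzymes of lower glycolysis, Pgam2, the muscle phosphoglycerate mutase, differed by -0.31 ± 0.28, Pkm, pyruvate kinase, by -0.15 ± 0.19 and Aldoa, aldolase, by 0.06 ± 0.20. On the glycogen side, Phkg2, the liver form of the catalytic subunit, differed by -0.27 ± 0.29, Ugp2, which makes the sugar donor for glycogen, by -0.02 ± 0.27 and Gbe1, the branching enzyme, by 0.07 ± 0.37. Gpd1, the cytosolic partner of Gpd2, differed by -0.14 ± 0.28. Phkb, a further subunit of phosphorylase kinase, was at the floor in all 9 arrays and has no difference. Gapdh and Ppp1r3a had no probe set with 1 symbol.

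**Figure D4:**
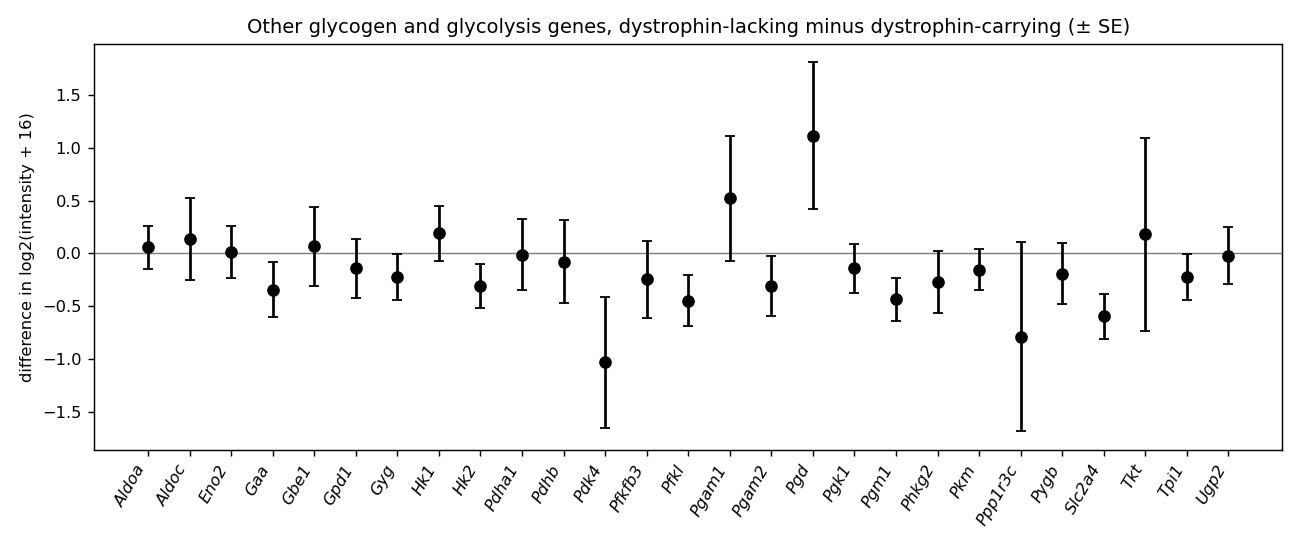
Difference in log2(intensity + 16) without minus with dystrophin, ± SE, for the 27 other glycogen and glycolysis genes that passed the filter, in alphabetical order on the horizontal axis. Most points lie below 0 with bars of the same size as the differences, and Slc2a4 is at -0.59.

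In the plot of the wider pathway the widest bars belong to Tkt, Ppp1r3c, Pgd and Pdk4. With human gene carriers against non-carriers on the mdx backgrounds, 18 of the 27 were higher, with a median of 0.22. Of all probe sets 48.4% were lower in carriers, with a median of 0.02. Slc2a4 differed by 0.75 ± 0.27 in that comparison (limma adjusted p = 0.800). In hDMD mdx against mdx mice 22 of the 27 were higher, with a median of 0.20, and 19 with trimmed mean scaling, and none passed. Of all probe sets 47.3% were lower in hDMD mdx, with a median of 0.02.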

How the data were processed

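The authors deposited 1 linear intensity per probe set and array, with some values below 0. For these intensity values the authors' software and scaling were not given in the sources used here. Of 12488 probe sets, 66 controls were left out. The other 12422 were quantile normalised over the 9 arrays, floored at 0 and taken to log2(intensity + 16). The 7453 with a mean above the 40th percentile were tested two-sided with limma 3.58.1 in R 4.3.3 (lmFit, eBayes), with Benjamini-Hochberg adjustment over all of them and a threshold of 0.05. GEO's platform annotation gave 1 symbol to 10833 probe sets, several to 396 and none to 1193, updated through RefSeq. Genotypes were compared in 1 fit over 9 arrays (3 residual degrees of freedom), mice without and with dystrophin in another (7), and the human gene and utrophin in an additive fit over 6 arrays (3). A gene was represented by its brightest probe set. The 10 genes and the pathway genes named were listed by symbol, and a gene of the wider list was otherwise to be named if it passed; genes and lists were chosen with earlier results of these data known. The number of arrays limits the precision. Tests ran first on simulated data. A shift of 2 log2 units was recovered for 0% of shifted genes in mdx against wild-type and in hDMD mdx against mdx. Recovery was also 0% in hDMD against wild-type, for the difference between the effects of the human gene and for any difference between the 6 genotypes. The shift was recovered for 77.5% without dystrophin, 58% for the human gene, 42.5% for utrophin loss and 34% in hDMD mdx against wild-type. Where recovery was 0%, not passing says little about a change of that size. The Phka1 difference without dystrophin, -1.04, is smaller than that shift, so recovery at 2 log2 units does not show how often it would pass. Alternatives covered scaling, pseudocount, filter, eBayes trend, array brightness, age, human gene, probe set and each mouse left out.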

Additional observations from a re-analysis of the deposited data

How the results depend on the processing

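None of the 10 genes passed in limma in any comparison under any alternative. Their median difference without dystrophin, -0.40, was -0.26 with the human gene as a covariate and -0.44 to -0.25 with 1 mouse left out. With the values as deposited, which differ in brightness between arrays, the medians were 0.78 for hDMD mdx against mdx (0.30 as reported), 0.59 for hDMD mdx against wild-type (0.24), -0.65 for hDMD against wild-type (0.11), 0.65 for the human gene (0.45), -1.55 for utrophin loss (-0.16), -0.61 for the difference between the effects of the human gene (0.32) and 0.31 for the single pair (0.53). The median of all probe sets itself moved to 0.51, 0.53, -0.73, 0.25 and -1.2 in the first 5 of these. Scaled to a common trimmed mean, the medians were 0.11 for hDMD mdx against wild-type, 0.70 for hDMD against wild-type, 0.27 for utrophin loss, 0.95 for the difference between effects and 1.32 for the single pair; the single pair was recomputed after seeing the data. With age as a covariate, hDMD mdx against wild-type gave 0.070. With 1 mouse left out, the medians ran from -0.30 to 0.00026 for mdx against wild-type, 0.21 to 0.47 for hDMD mdx against mdx, 0.037 to 0.26 for hDMD mdx against wild-type, 0.30 to 0.48 for the human gene, -0.31 to -0.049 for utrophin loss and 0.16 to 0.32 for the difference between effects. The cause of these shifts was not tested.

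Of all probe sets, 9 passed without dystrophin, against 0 as deposited, 1 with a pseudocount of 1, 2 without the filter, 2 with the human gene as a covariate and 2 to 18 with 1 mouse left out; for the human gene 0 passed, against 1 with an eBayes trend and 4 with brightness as a block. The dim arrays alone left no residual degrees of freedom for the genotype fit. No paired analysis was possible because the labels carry no replicate numbers to pair mice by; array brightness served as a block instead. Genotypes of 1 mouse, differing ages and quantile normalisation of the brightest probe sets limit what these arrays can show.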
